A study of Mus musculus with 4 samples.

Results

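The genes described here build fatty acids and cholesterol, or control their synthesis, and were measured in mammary tumours of mice. A list of 36 genes was searched for by current or former symbol in the gene name column of the arrays, outside control spots. This found 24 genes on 34 probes, of 34723 genes measured in all, and all 24 passed the filter on dim probes. The remaining 12 genes were found on 18 probes only through the array's text description of the probe, a step added after the annotation was seen. They are marked as named by description and are kept out of the counts unless stated.

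Tumours of MMTV-cdc25a;MMTV-neu mice (called Cdc25a;neu) were compared with tumours of MMTV-neu mice (called neu). Both transgenes are driven by the mouse mammary tumour virus promoter, which is active in mammary epithelium, so the neu mice carry the neu transgene as well and differ from the others only by cdc25a as far as the labels say. Cdc25a is a phosphatase that activates cyclin-dependent kinases, and neu is a name of the receptor tyrosine kinase Erbb2. All mice were FVB/N females aged 26 weeks with mammary tumours at stage T1, below 1 cm. Each of 2 Cdc25a;neu tumours was hybridised against 1 neu tumour on 2-colour arrays, and each pair was repeated with the dyes swapped, which gave 4 arrays. The mouse pair is therefore the replicate (n = 2), and the dye swap is technical. RNA came from whole tumours, in which fewer cells of a type and less RNA per cell cannot be told apart.

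Fatty acids are made from acetyl-CoA by the carboxylase Acaca and the synthase Fasn, and are then desaturated and elongated. Cholesterol is made from the same acetyl-CoA through mevalonate, squalene and lanosterol. The transcription factors Srebf1 and Srebf2 (SREBPs) activate most genes of both routes: Scap escorts them out of the endoplasmic reticulum when sterols are low, and Insig1 and Insig2 hold them back when sterols are high. The mammary gland makes much fat for milk, and fat cells of the surrounding tissue express many of the same enzymes.

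On the 4 arrays, 78.5% to 92.2% of spots passed the scanner's test against background in green and 82.7% to 87.9% did so in red. Ratios of the arrays of a pair correlated at r = 0.64 in pair 1 and r = 0.75 in pair 2, and those of arrays of different pairs at r = 0.20 to r = 0.36 (across genes, which are not independent replicates). The probe for Cdc25a itself averaged 0.05 ± 0.06 in log2 ratio over both pairs (SD, n = 2), with a limma adjusted p of 0.781, and that for Erbb2 averaged 0.65 ± 0.28, at 0.45 in pair 1 and 0.85 in pair 2 (limma adjusted p = 0.492). The Erbb2 difference is as large as those of Scd2 and Elovl1 below, and its part in them was not tested. The labels do not say whether either probe reads its transgene. All probes of the 36 genes were well above background in both genotypes on all 4 arrays, except that of Stard4, which was so on 3 of 4 in neu tumours, and none was saturated.

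No gene of either route passed the test between the genotypes. The limma fit of the mean of both pair ratios called 0 of 34723 genes at an adjusted p under 0.05 (0%), and 0 of the 24 genes, whose adjusted p values began at 0.445. Before adjustment, p lay under 0.05 for 4 of the 24, with Scd2 and Elovl5 higher and Elovl1 and Elovl6 lower in Cdc25a;neu tumours, against 9.56% of all genes (3.84% higher and 5.72% lower). Both pairs gave a higher value in Cdc25a;neu tumours for 6 of the 24 genes (31.5% of all genes), both gave a lower value for 5 (28.3% of all genes), and 13 went opposite ways. Counted by pair, 17 of the 24 lay above 0 in pair 1, beside 52% of all genes, and 16 lay below 0 in pair 2, beside 48.7%. The levels of the mice did not overlap between genotypes for 3 higher genes (Me1, Scd2 and Elovl5), beside 8.58% of all genes, and for 2 lower ones (Elovl1 and Ebp), beside 11.3%. The median log2 ratio of the 24 genes was 0.10 in pair 1 and -0.04 in pair 2, beside 0.005 and 0.004 for all genes. With the 12 genes named by description, 7 of 36 lay above 0 in both pairs, 11 below 0 in both, and 18 went opposite ways.

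**Figure D1:**
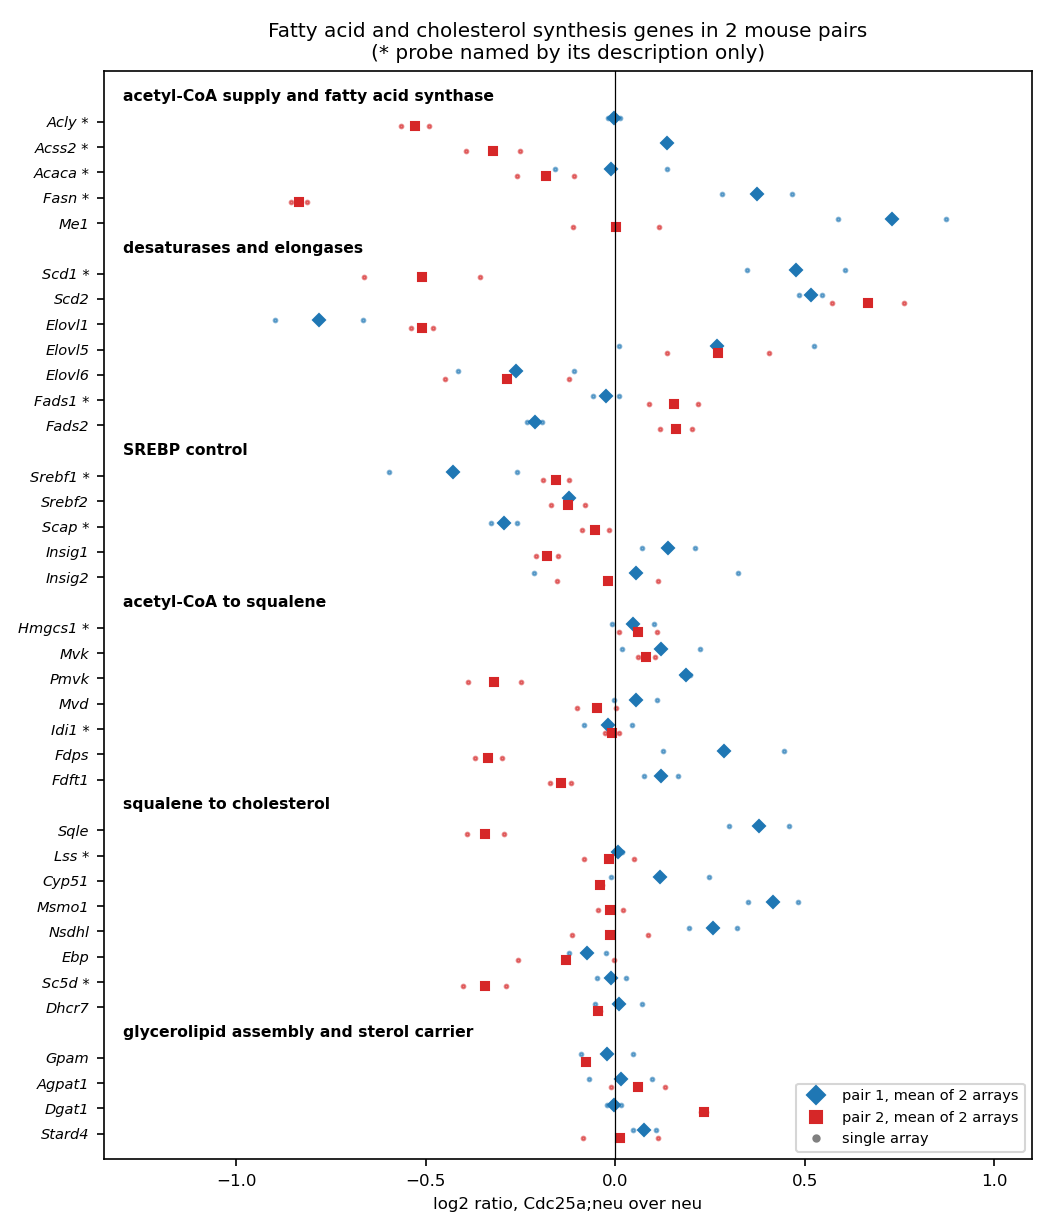
The log2 ratio of Cdc25a;neu over neu (x axis) is plotted for each of the 36 genes (y axis, by role), with large diamonds and squares for the mean of each pair and small points for single arrays. Scd2 lies right of 0 and Elovl1 left of 0 on all 4 arrays, while Fasn, Scd1, Sqle, Fdps and Pmvk lie right of 0 in pair 1 and left of 0 in pair 2.

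The largest differences shared by both pairs were in 2 genes that shape fatty acid chains. Scd2, a stearoyl-CoA desaturase that makes monounsaturated fatty acids, had log2 intensities of 12.66 and 12.58 in the Cdc25a;neu mice of pairs 1 and 2, against 12.15 and 11.91 in the neu mice. Both Cdc25a;neu mice lay above both neu mice, and the log2 ratio was 0.52 in pair 1 and 0.67 in pair 2, with 0.49, 0.55, 0.57 and 0.76 on the single arrays. The mean of 0.59 ± 0.11 (SD, n = 2 pairs), or 1.51-fold higher, had an adjusted p of 0.445 in limma. Among all genes, 1.26% were higher in both pairs with a mean of at least 0.5.

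Elovl1, an elongase of very long saturated and monounsaturated chains, had log2 intensities of 9.65 and 9.54 in Cdc25a;neu mice, against 10.43 and 10.05 in neu mice. Both Cdc25a;neu mice lay below both neu mice. The log2 ratio was -0.78 in pair 1 and -0.51 in pair 2, ranging from -0.90 to -0.48 over the single arrays. Its mean was -0.65 ± 0.19 (SD, n = 2 pairs), 1.56-fold lower, with an adjusted p of 0.460 in limma, and 1.52% of all genes were lower in both pairs by a mean of at least 0.5. Under median centring in place of loess, limma adjusted p was 0.00212 for Scd2 and 0.00828 for Elovl1, and over 14 alternative fits, this one included, it ranged up to 0.987 for Scd2 and 0.999953 for Elovl1, with 2 fits past the threshold for each.

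The genes next to these 2 on their chromosomes, looked up after their values were seen, did not all go the same way. In the gene order of GRCm38.p6, Elovl1 lies on chromosome 4. Of the 10 nearest measured genes on each side, 8 lay below 0 in both pairs (28.3% of all genes) and 9 above 0 in both (31.5%). The 9 included the olfactory receptor genes Olfr1341 (0.11 and 0.24), Olfr1339 (0.03 and 0.11), Olfr1338 (0.02 and 0.01) and Olfr1337 (0.005 and 0.02). The receptor gene Olfr1342 (-0.04 and -0.07) was among the 8. On all 4 arrays, 5 of these 20 were lower, beside 12.6% of all genes, and 2 were higher, beside 14.4%. The larger differences were lower ones, with means from -0.59 to 0.18. None (0) of the 20 had a mean log2 ratio below that of Elovl1. The lowest was Atp6v0b, a subunit of the vacuolar proton pump, at -0.67 in pair 1 and -0.52 in pair 2, followed by Dmap1, a partner of a DNA methyltransferase, at -0.72 and -0.40. The adjacent Mediator subunit Med8 gave -0.31 and -0.50. On chromosome 19, the desaturase genes Scd3 and Scd4 beside Scd2 stood at -0.05 and 0.01 in pair 1, then at -0.0009 and 0.04 in pair 2. All 20 neighbours of Scd2 had a lower mean ratio than Scd2.

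The other desaturases and elongases differed less. Elovl5, which elongates polyunsaturated chains, gave 0.27 in both pairs, and Elovl6, which elongates palmitate, gave -0.26 in pair 1 and -0.29 in pair 2. Their arrays depended on the dye: Elovl5 had 0.52 and 0.41 where the Cdc25a;neu tumour carried Cy5, but 0.01 and 0.14 where it carried Cy3. Elovl6 likewise had -0.41 and -0.45 with Cy5, but -0.11 and -0.12 with Cy3. The Elovl5 levels of the Cdc25a;neu mice (11.07 and 11.32) lay above those of the neu mice (10.81 and 11.05), while the Elovl6 levels of the genotypes overlapped. Adjusted p was 0.471 for each in limma. The polyunsaturated fatty acid desaturases Fads2 and Fads1 (Fads1 named by description) stood at -0.21 and -0.02 in pair 1, then at 0.16 and 0.15 in pair 2.

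Scd1, the main stearoyl-CoA desaturase of fat-making tissues, went opposite ways in the pairs. Its probe, named by a description that calls the match inferred, read 10.64 and 9.92 in Cdc25a;neu mice, against 10.17 and 10.43 in neu mice. The Cdc25a;neu mouse of pair 1 was the highest of the 4 and that of pair 2 the lowest. The log2 ratio was thus 0.48 in pair 1 and -0.51 in pair 2, with a mean of -0.02 ± 0.70 (SD, n = 2 pairs) and a limma adjusted p of 0.990.

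**Figure D2:**
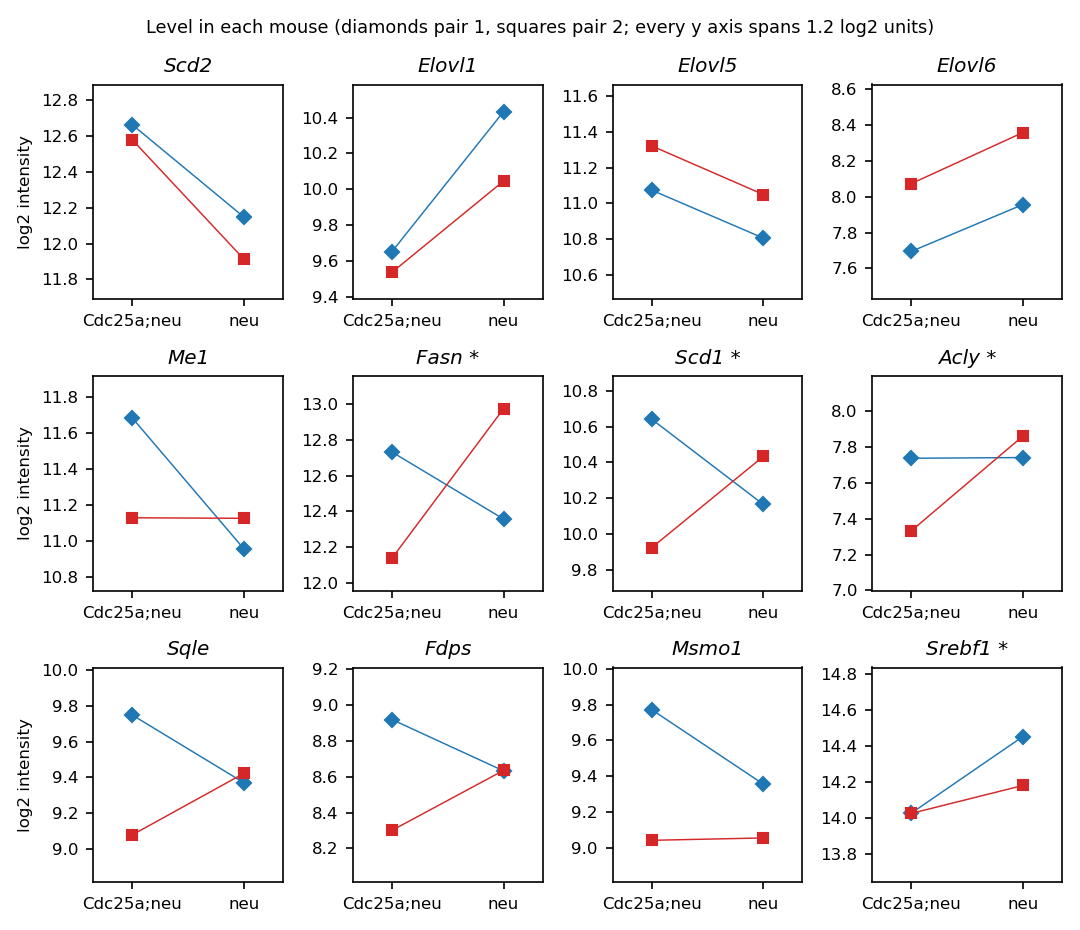
Log2 normalized intensity (y axis, 1.2 units in every panel) of 12 genes in each mouse, with the Cdc25a;neu mouse left and the neu mouse of its pair right, joined by a line (diamonds pair 1, squares pair 2, asterisk for genes named by description). The lines run the same way in both pairs for Scd2, Elovl1, Elovl5, Elovl6 and Srebf1, and cross for Fasn, Scd1 and Sqle, which run up to the left in pair 1 and down to the left in pair 2.

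Of the 5 enzymes that supply acetyl-CoA and NADPH or make palmitate, 2 split between the pairs (Fasn and Acss2), 2 were lower in both (Acly and Acaca) and 1 was higher in both (Me1). For Acly, Acaca and Me1, the smaller of the pair values lay close to 0, and its arrays differed in sign. Fasn, the fatty acid synthase, named by description, had log2 intensities of 12.73 and 12.14 in Cdc25a;neu mice, against 12.36 and 12.97 in neu mice. Its log2 ratio was 0.37 in pair 1 and -0.83 in pair 2, and the arrays of each pair shared its sign (0.47 and 0.28, then -0.81 and -0.85). The mean of -0.23 ± 0.86 (SD, n = 2 pairs) had a limma adjusted p of 0.863. The pairs differed by 1.21, and 1.36% of all genes differed by at least 1. A difference between pairs compares single mice and has no test here.

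The malic enzyme Me1, which supplies NADPH for fatty acid synthesis, gave 0.73 in pair 1 and 0.003 in pair 2. The Cdc25a;neu mouse of pair 1 read 11.69, and the other 3 mice lay between 10.95 and 11.13. Acly, which splits citrate into acetyl-CoA and was named by description, gave -0.004 in pair 1 and -0.53 in pair 2. Acss2, which makes acetyl-CoA from acetate and was also named by description, gave 0.14 in pair 1 and -0.32 in pair 2 on its brightest probe. Its other probes differed, with 0.08 and 0.05 for one and 0.003 and -0.09 for another. Acaca, read by a probe described as an acetyl-CoA carboxylase without its form, had log2 intensities of 6.54 and 6.56 in Cdc25a;neu mice, against 6.55 and 6.75 in neu mice. The pair ratios of -0.01 and -0.18 had a limma adjusted p of 0.697.

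Of the 5 genes that control the pathway, both pairs gave lower values of the 2 SREBP genes and of Scap in Cdc25a;neu tumours, and the 2 Insig genes split. Srebf1, named by description, had log2 intensities of 14.03 and 14.02 in Cdc25a;neu mice, against 14.45 and 14.18 in neu mice, so that the genotypes did not overlap. Its log2 ratio was -0.43 in pair 1 and -0.16 in pair 2 (mean -0.29 ± 0.19, SD, n = 2 pairs; limma adjusted p = 0.530). Srebf2 had log2 intensities of 7.85 and 8.12 in Cdc25a;neu mice, against 7.97 and 8.24 in neu mice, which overlap, and gave -0.12 in both pairs (limma adjusted p = 0.542). A further 3 probes described as Srebf2 had means of -0.43, -0.25 and 0.01. The probe at -0.25 was the brighter one, at 10.70 and 10.62 in Cdc25a;neu mice, against 10.89 and 10.92 in neu mice. On it and on the probe at -0.43, the genotypes did not overlap.

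Scap, named by description, had log2 intensities of 10.56 and 11.15 in Cdc25a;neu mice, against 10.85 and 11.20 in neu mice. The ratio was -0.29 in pair 1 and -0.05 in pair 2 (limma adjusted p = 0.610). Insig1, itself a target of SREBPs, had log2 intensities of 6.38 and 6.21 in Cdc25a;neu mice, against 6.24 and 6.39 in neu mice, and gave 0.14 in pair 1 and -0.18 in pair 2 (limma adjusted p = 0.964). Insig2 read 9.34 and 9.17 in Cdc25a;neu mice, against 9.29 and 9.19 in neu mice, and its ratios of 0.05 and -0.02 turned sign with the dye in both pairs. The second Insig2 probe went the reverse way, at -0.18 in pair 1 and 0.20 in pair 2. None of the 5 passed the test.

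Promoters were searched for letters bound by SREBPs and by the factors NF-Y and Sp1, which act beside them. RefSeq promoters of GRCm38.p6, from 250 bases before to 50 after the start, were at hand for 28 of the 36 genes. The sterol regulatory element core TCACNCCAC, on either strand, stood in 1 of the 28, Hmgcs1, and in 1.44% of 27025 genes. The NF-Y box CCAAT stood in 24 of the 28 and in 41.1% of all genes, and the Sp1 box GGGCGG in 23 of the 28 and in 38.2% of all genes. A gene with several listed starts counted if any of its promoters held the letters. Shown are Elovl1 (the first of its listed starts), which had the largest lower ratio, Fasn, whose pairs differed most, and Hmgcs1, the one with the sterol element. Capitals mark the 3 motifs on either strand, and neighbouring motifs can overlap.
Elovl1, chr4:118427843-118428142, plus strand: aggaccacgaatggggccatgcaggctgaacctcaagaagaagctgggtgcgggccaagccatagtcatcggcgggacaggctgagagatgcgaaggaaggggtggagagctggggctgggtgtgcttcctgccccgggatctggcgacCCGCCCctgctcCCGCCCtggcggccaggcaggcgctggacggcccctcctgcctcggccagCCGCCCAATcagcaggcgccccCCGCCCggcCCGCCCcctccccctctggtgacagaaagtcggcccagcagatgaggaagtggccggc
Fasn, chr11:120824498-120824797, minus strand: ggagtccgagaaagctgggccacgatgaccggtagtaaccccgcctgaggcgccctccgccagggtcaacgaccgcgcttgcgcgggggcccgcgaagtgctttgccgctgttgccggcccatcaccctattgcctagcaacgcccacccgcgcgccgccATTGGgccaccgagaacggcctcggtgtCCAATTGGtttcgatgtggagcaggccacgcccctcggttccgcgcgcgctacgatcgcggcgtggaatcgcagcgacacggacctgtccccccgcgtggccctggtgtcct
Hmgcs1, chr13:119690101-119690400, plus strand: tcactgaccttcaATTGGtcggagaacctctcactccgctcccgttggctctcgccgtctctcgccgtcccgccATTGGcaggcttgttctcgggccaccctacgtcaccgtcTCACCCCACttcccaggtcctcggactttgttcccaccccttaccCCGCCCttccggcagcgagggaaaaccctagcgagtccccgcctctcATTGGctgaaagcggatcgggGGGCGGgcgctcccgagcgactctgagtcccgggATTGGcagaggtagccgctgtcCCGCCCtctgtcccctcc
These matches are letters in a window and say nothing about binding. The Elovl1 window holds 5 Sp1 boxes and 1 NF-Y box, which overlaps one of them, and the Fasn window holds 3 NF-Y boxes, of which a pair overlap. Hmgcs1 has 4 NF-Y boxes and 3 Sp1 boxes beside its sterol element.

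The enzymes of the mevalonate pathway, from acetyl-CoA to squalene, were mostly higher in pair 1 and lower in pair 2. Hmgcs1, the synthase of HMG-CoA, named by description, gave 0.05 in pair 1 and 0.06 in pair 2. The mevalonate kinase Mvk gave 0.12 and 0.08, higher on all 4 arrays. The phosphomevalonate kinase Pmvk gave 0.19 in pair 1 and -0.32 in pair 2. Fdps, which makes farnesyl diphosphate, gave 0.29 and -0.33, and Fdft1, the squalene synthase, gave 0.12 and -0.14, with 0.11 and 0.22 for its second probe. The decarboxylase Mvd gave 0.05 and -0.05, and the isomerase Idi1, named by description, gave -0.02 and -0.01. In the 5 of these genes named by symbol, all 5 were above 0 in pair 1 (52% of all genes) and 4 were below 0 in pair 2 (48.7% of all genes).

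From squalene to cholesterol, Sqle showed the widest split. Sqle, the squalene epoxidase and a rate-limiting step, had log2 intensities of 9.75 and 9.08 in Cdc25a;neu mice, against 9.37 and 9.42 in neu mice. The neu mice were alike, and the Cdc25a;neu mice lay on either side of them. The log2 ratio was 0.38 in pair 1 and -0.34 in pair 2, with 0.46 and 0.30, then -0.29 and -0.39, on the arrays (limma adjusted p = 0.985). The C4-methyl oxidase Msmo1 gave 0.42 in pair 1 and -0.01 in pair 2, and the C4 dehydrogenase Nsdhl gave 0.26 and -0.01. The lanosterol demethylase Cyp51 gave 0.12 and -0.04.

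The lanosterol synthase Lss, named by description, gave 0.01 in pair 1 and -0.02 in pair 2, and Dhcr7, which makes cholesterol in the last step of 1 branch, gave 0.01 and -0.05. The second Dhcr7 probe gave 0.15 and -0.28. The isomerase Ebp gave -0.07 and -0.13, with log2 intensities of 11.47 and 11.49 in Cdc25a;neu mice, below 11.55 and 11.62 in neu mice. The desaturase Sc5d, named by description, gave -0.01 and -0.34. Of the 8 genes from squalene to cholesterol, with Lss and Sc5d included, 0 were higher in both pairs (31.5% of all genes). A higher value in pair 1 and a lower one in pair 2 held for 6 (20.4% of all genes), some of them close to 0. On both arrays of each pair it held for 1 of the 8, Sqle (5.92% of all genes).

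The 4 genes of glycerolipid assembly and sterol transport had mean log2 ratios between -0.05 and 0.12. The acyltransferase Gpam, which begins triglyceride synthesis, gave -0.02 in pair 1 and -0.08 in pair 2. Agpat1, the next acyltransferase, gave 0.01 and 0.06, with 0.08 and -0.51 for its second probe. Dgat1, which completes triglycerides, gave -0.003 and 0.23, and the sterol carrier Stard4 gave 0.08 and 0.01.

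The commonest pattern, higher in pair 1 and lower in pair 2, lay mostly in the sterol route. It held for 11 of the 24 genes, beside 20.4% of all genes, and the opposite pattern held for 2 of 24, beside 19.7% of all genes. It held for none (0) of the 5 desaturases and elongases named by symbol, and for 1 of 7 (Scd1) with those named by description. The 11 were Insig1, Insig2, Pmvk, Mvd, Fdps, Fdft1, Sqle, Cyp51, Msmo1, Nsdhl and Dhcr7, and all but the Insig genes are sterol enzymes. Other probes of some of them differed: the second Insig2 probe went the reverse way (-0.18 and 0.20). The second Fdft1 probe was higher in both pairs (0.11 and 0.22), and a further Cyp51 probe was lower in both (-0.01 and -0.25). On both arrays of each pair the pattern held for 5 of 24 (Insig1, Pmvk, Fdps, Fdft1 and Sqle), beside 5.92% of all genes, and the reverse for 1 of 24 (Fads2), beside 7.47%. Fasn, Scd1 and Acss2, all named by description, also showed it on all 4 arrays, but Acss2 did so only on its brightest probe. In 7 of the 24 genes (Insig2, Mvd, Fdps, Fdft1, Sqle, Msmo1 and Nsdhl) the Cdc25a;neu mouse of pair 1 was the highest of the 4 mice and that of pair 2 the lowest. The share of all genes with this order was not computed. The order also depends on levels read on arrays of different pairs. For Mvd the neu mice read 7.55 and 7.26, while its pair ratios were 0.05 and -0.05. Insig2 is counted although its ratios turned sign with the dye. The pattern and this order describe 2 mice of 1 genotype and were looked for after the values were seen. Genes under shared control are not independent of each other.

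**Figure D3:**
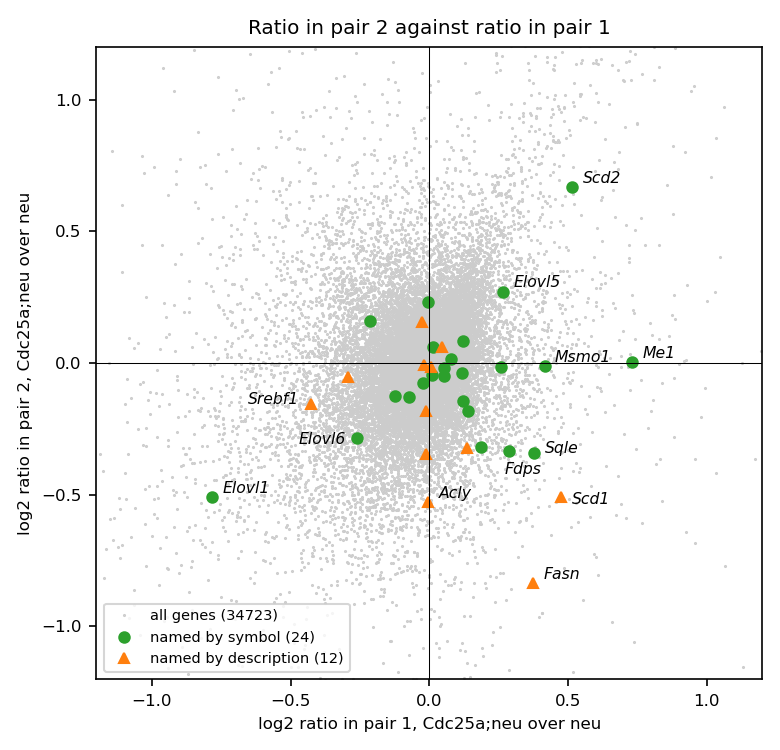
The log2 ratio of Cdc25a;neu over neu in pair 2 (y axis) is set against that in pair 1 (x axis) for 34723 genes (grey), the 24 genes named by symbol (circles) and the 12 named by description (triangles). Axes end at 1.2, beyond which 445 genes lie. Scd2 lies in the upper right and Elovl1 in the lower left, and 15 of the 36 genes lie in the lower right quadrant.

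Other lipid genes showed both kinds of pattern. Among 6 other sterol synthesis enzymes, 3 were higher in pair 1 and lower in pair 2, among them the sterol reductase Lbr (0.20 and -0.12). Ggps1, which makes geranylgeranyl diphosphate, gave -0.22 and 0.04. Of 6 genes of sterol uptake and trafficking, 0 lay above 0 in both pairs and 2 below 0 in both, the lysosomal cholesterol exporters Npc1 (-0.15 and -0.27) and Npc2 (-0.02 and -0.30). Of 7 genes of the sterol sensor LXR and of cholesterol efflux, 5 ran the other way, lower in pair 1 and higher in pair 2 (19.7% of all genes). On both arrays of each pair this held for 3 of the 7 (7.47% of all genes). The LXR genes themselves lay near 0, with 0.01 and -0.004 for Nr1h2 and -0.03 and 0.02 for Nr1h3. The 5 included the apolipoprotein Apoe (-0.92 and 0.22) and the efflux transporter Abcg1 (-0.71 and 0.39). The partner receptor Rxra was higher in both (0.19 and 0.31).

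Further fatty acid genes were more often lower. Of 17 measured genes of fatty acid and triglyceride synthesis beyond the 36, 9 had lower values in Cdc25a;neu tumours in each pair and 2 had higher values in each. The median of these 17 was -0.06 in pair 1 and -0.17 in pair 2. Thrsp, a lipogenic regulator abundant in fat and mammary gland, had the largest mean at -1.12 ± 0.62, with -0.68 in pair 1 and -1.56 in pair 2. The lipid droplet protein Pnpla3 gave 0.18 and -1.52, and the acyl-CoA synthetase Acsl1 gave -0.44 and -0.76. Of 9 genes of fatty acid uptake and lipolysis, 3 lay above and 4 below 0 in both pairs, led by the lipase inhibitor G0s2 (-1.29 and -1.42), the transporter Cd36 (0.88 and 0.57) and the lipoprotein lipase Lpl (-0.68 and -0.13). Of 9 oxidation genes, 1 was higher in both, the carnitine transferase Cpt1b (0.42 and 0.82), and 3 were lower in both, among them Cpt2 (-0.72 and -0.42). Second probes of some genes had smaller means, with 0.04 for Cpt1b, -0.29 for Acsl1 and -0.14 for Lpl. None (0) of these genes passed the limma test.

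No marker of the other cells of the gland passed the limma test, in which the lowest adjusted p among them was 0.233. The median of the fat cell markers was -0.14 in pair 1 and -0.75 in pair 2, and 8 of 12 were lower in both pairs. Their summed intensities were 3289 and 4208 in Cdc25a;neu mice, against 7555 and 16597 in neu mice. The largest were Cfd (mean -3.55), Fabp4 (-2.43) and Car3 (-2.19, but -0.02 on its second probe). The neu mouse of pair 2, with the highest fat cell sum, was also the highest for Fasn. It had the highest sums of luminal (124024) and skeletal muscle (3429) markers as well. In pair 1 the neu mouse had the higher fat cell sum but the lower Fasn level (12.36 against 12.73). Markers of dividing cells were higher in both pairs for 7 of 8, with sums of 8322 and 8491 in Cdc25a;neu mice, against 5804 and 6320 in neu mice, led by Kif20a (0.61).

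The medians of the macrophage and fibroblast markers also split between the pairs. They lay below 0 in pair 1 and above 0 in pair 2, the reverse of most sterol enzymes. The median of the macrophage markers was -0.25 in pair 1 but 0.36 in pair 2, with summed intensities of 1582 and 2313 in Cdc25a;neu mice, against 1882 and 1538 in neu mice. Of the 6 macrophage markers, 4 were lower in pair 1 and higher in pair 2, and 2 were higher in both. Fibroblast markers had medians of -0.36 and 0.73. Their sums were 1199 and 6818 in Cdc25a;neu mice, against 1568 and 2971 in neu mice. Only 3 of the 5 fibroblast markers were lower in pair 1 and higher in pair 2. The other 2, Dcn (mean -0.83) and Pdgfra (mean -0.29), were lower in both pairs. Markers of luminal and secretory epithelium had medians of 0.08 and -0.11, with sums of 102324 and 94619 in Cdc25a;neu mice, against 100101 and 124024 in neu mice. Basal epithelium (-0.07 and 0.11), endothelium (0.05 and 0.13) and skeletal muscle (0.04 and -0.89) made up the rest. Markers that failed the background filter are left out of these values. Their part in the ratios of the lipid genes was not tested.

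**Figure D4:**
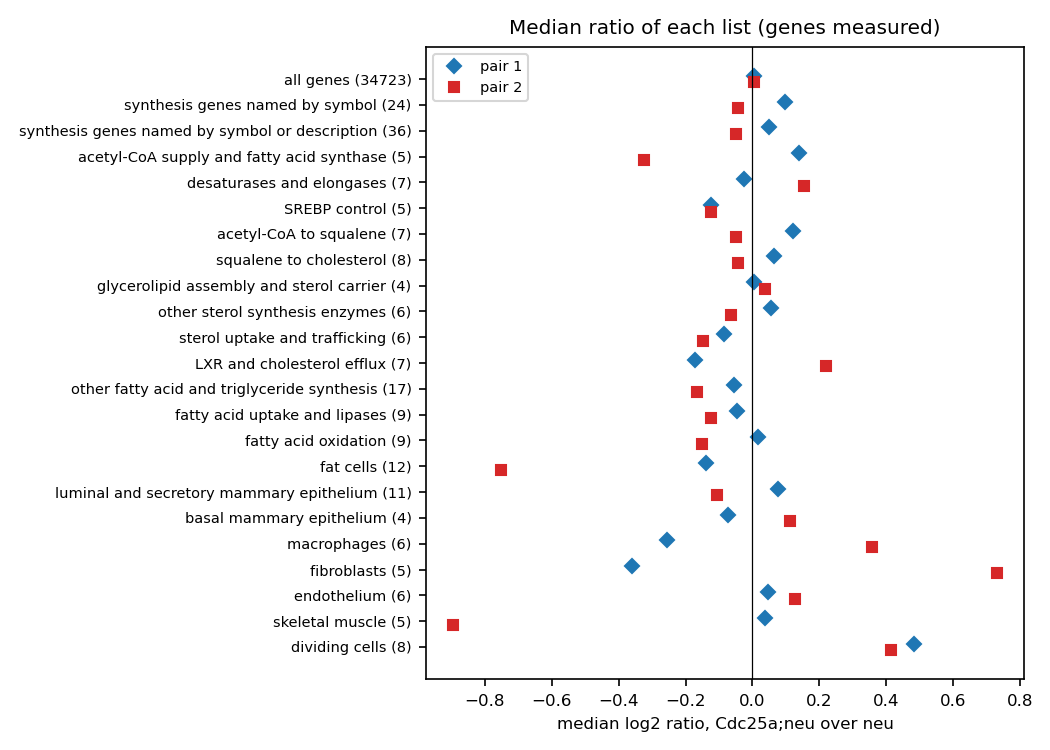
Median log2 ratio of Cdc25a;neu over neu (x axis) of each gene list (y axis, number of measured genes in brackets) in pair 1 (diamonds) and pair 2 (squares). Dividing cell markers lie right of 0 and fat cell markers left of 0 in both pairs, while macrophage and fibroblast markers lie left of 0 in pair 1 and right of 0 in pair 2.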

How the data were processed

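The scanner files, per the file headers, give each spot's intensity in both channels and a log10 ratio of red over green. Agilent Feature Extraction is version 7.2 in the submitters' processing notes and 7.5.1 in the headers. The authors' deposited value table holds natural log ratios (slopes of 2.27 to 2.29 against the scanner's log10 ratio, with 2.30 expected), with centring unstated. Intensities were corrected by normexp (offset 50) and normalized by loess within arrays. Outlier spots were dropped, and swapped arrays were turned to Cdc25a;neu over neu and averaged per pair. A probe was kept if 2 or more of the 4 arrays showed it well above background in 1 or both channels. The brightest kept probe stood for a gene, and probes named by description did so only where no probe carried the symbol. Levels per mouse are log2 intensities after loess and Aquantile, and probes are not compared with each other. Limma 3.58.1 (R 4.3.3) tested both pair ratios against 0, with eBayes and Benjamini-Hochberg adjustment over 34723 genes. On simulated data of this comparison with 34723 genes, the fit found 52 of 100 genes shifted by 2 log2 units and 0 of 100 shifted by 1, and made 3 false calls. All listed genes are named with pair values. Levels per mouse are given for those at 0.5 or more in both-pair mean, those whose pairs differ by 1 or more, the SREBP control genes, and Fasn, Acaca, Scd1 and Sqle. Of other lists, the 3 genes with the largest means may be named, and some items this rule would name are not reported here. The genes and lists were chosen with earlier results of these data known.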

Additional observations from a re-analysis of the deposited data

How the results depend on the processing

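Of 467 recomputed gene ratios, 53 changed sign and 2 came to pass the test. Of the sign changes, 47 were in genes whose own pairs lay on opposite sides of 0, and 18 of these came from leaving out a pair, as for Fasn (-0.83 to 0.37), Sqle (-0.34 to 0.38) and Msmo1 (-0.013 to 0.42). The 35 from other settings were in 14 genes whose reported means were at most 0.05 in size. In genes whose pairs agreed, 6 changed sign: Stard4 (-0.059 with median centring, and -0.0046 to 0.095 over left-out arrays), Agpat1 (-0.088 with the mean of all kept probes, and -0.0047 to 0.079 over left-out arrays) and Idi1 (0.030 in the authors' deposited value table, and -0.045 to 0.018 over left-out arrays). Limma called 0 of the 24 genes and 0 of 34723 in all fits except 2: median centring called 2 and 1054, and the 4 arrays as units with the pair as a random block called 2 and 926. Scd2 and Elovl1 passed in both, and the second counts technical repeats as replicates. With median centring, 3 genes were lower in both pairs. With the genes named by description, added after seeing the data, 11 were. The median of 0.01 lay at -0.0088 with the mean of all kept probes and at -0.015 with the genes named by description. Over left-out arrays and pairs it ran from -0.043 to 0.097, and the median of all genes over left-out arrays from -0.0016 to 0.0066. Scd2 ranged from 0.51 to 0.67 and Elovl1 from -0.78 to -0.51 over all settings, and the causes of these changes were not tested.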

Other observations

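Values that belong to no comparison above concern genes read by several probes. Of the 24 genes named by symbol, 8 had several kept probes that carry the symbol. In 3 of these the probes' means lay on opposite sides of 0, and the largest gap between 2 such probes of a gene was 0.25 on the log2 scale. Probes named by description are not counted, and for Srebf2 they span -0.43 to 0.01.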
